A study of Drosophila melanogaster with 4 samples.

Results

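The sequence described here is the 1 Mb next to the centromere at the assembled end of each large chromosome arm of Drosophila melanogaster. In FlyBase release 5 coordinates these windows are 2L 22011545 to 23011544, 2R 1 to 1000000, 3L 23543558 to 24543557, 3R 1 to 1000000 and X 21422828 to 22422827. Members are the authors' regions typed as enriched for histone H3 dimethylated at lysine 27 (H3K27me2), called clusters here, whose midpoint lies in a window. There were 487 members among 15589 clusters in replicate 1, 561 among 15021 in replicate 2 and 648 among 16862 in the combined list of the replicate set. Among the regions that the authors typed as enriched, the choice used position alone and not their score or length.

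Nuclei of wild-type Oregon-R larvae of instar 3 gave the chromatin, which came from animals grown without any named treatment and was immunoprecipitated with antibody Ab24684. The labels name 2 ChIP samples, each with its own input, and give neither the age in hours nor the sex of the larvae. No list was used for the inputs. Nothing in the labels says that the ChIP samples came from separate populations, and their spread may therefore be a technical one. Chromatin of all larval tissues was pooled, and a weak mark in all cells cannot be told apart from a strong mark in some. No region typed as depleted fell in a window, while the whole lists held 14 such regions for replicate 1, 0 for replicate 2 and 30 for the replicate set.

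H3K27me2 is set by E(z), the methyltransferase of Polycomb repressive complex PRC2, and is known in fly cells as a broad mark of chromatin with little transcription, outside the trimethylated Polycomb domains. The sequence around fly centromeres is heterochromatin. It is dense in remnants of transposable elements and is packed by HP1a bound to histone H3 methylated at lysine 9. The inner ends of the assembled arms lead from gene-rich euchromatin toward this heterochromatin. Coverage was followed in 20 steps of 50 kb, with step 1 farthest from the centromere. The border was not located here, and a window may lie wholly or mostly on 1 side of it. Sequence within these windows and the genes under the clusters were not analysed here.

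Clusters covered less of the centromere-side Mb than of the rest of the arm in the mean of both libraries, but the size of that deficit differed between them. Over the 5 arms the windows were covered to 27.3% in replicate 1 and 34.2% in replicate 2, or 30.7% ± 4.87 (SD, n = 2). The rest of the arms was covered to 44.2% and 37.9%. Taken within a library, the difference was -16.9 percentage points for replicate 1 and -3.77 for replicate 2, which gives -10.3 ± 9.31 (SD, n = 2). The mean difference was hardly larger than its spread. With 2 samples a permutation test by sign flips, exact and two-sided, has a smallest p of 0.5, so no p is given here or for any other difference between parts of the genome. Expressed as a ratio, a window held 0.617 times the coverage of the rest of its arm in replicate 1 and 0.901 times in replicate 2. The combined list gave 39.4% in the windows and 53.6% in the rest.

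The arms fell into different patterns. On 2L, coverage of the window was 25.5% in replicate 1 and 37.5% in replicate 2, against 40.3% and 36.0% in the rest of the arm. On 2R it was 26.0% and 40.8%, against 48.6% and 41.7%. On 3L it was 26.9% and 38.6%, against 42.3% and 37.7%. On these 3 arms the deficit was thus large in replicate 1, while in replicate 2 the window lay within 1.42 percentage points of the rest of the arm. The 3R window had 33.0% and 28.3%, against 48.7% and 41.4% in the rest. The difference there, -14.4 ± 1.83 percentage points (SD, n = 2), was nearly the same in both libraries and far exceeded its spread. The X window had the lowest mean coverage of the 5, 25.2% and 25.7%, against 41.2% and 32.8% in the rest of X. Its difference of -11.5 ± 6.35 percentage points (SD, n = 2) also exceeded the spread.

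**Figure D1:**
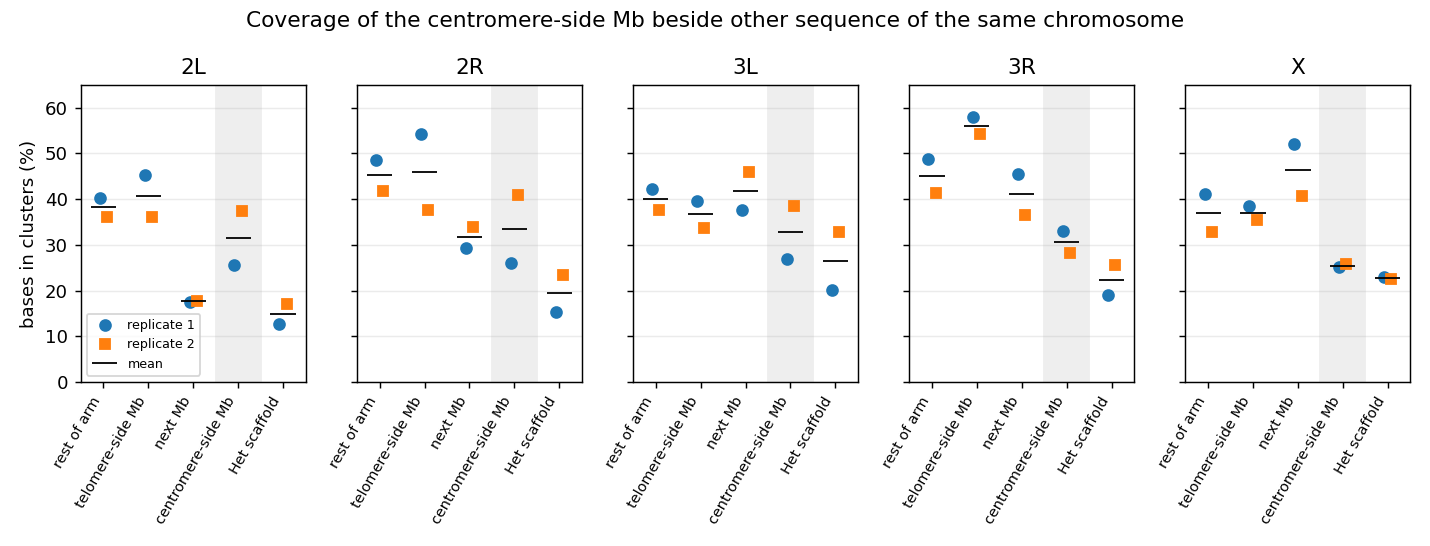
Percent of bases in H3K27me2 clusters (vertical axis) in the rest of each arm, its telomere-side Mb, the Mb next outward from the window, the centromere-side Mb (shaded) and the Het scaffold of the same name, with a circle for replicate 1, a square for replicate 2 and a line for their mean. Replicate 2 lies above replicate 1 in the centromere-side Mb of 2L, 2R and 3L, the reverse of their order in the rest of each arm.

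The other end of the arms was a further reference. The telomere-side Mb of the same arms was covered to 47.1% in replicate 1 and 39.4% in replicate 2, and the centromere-side Mb differed from it by -12.5 ± 10.3 percentage points (SD, n = 2). On 3R, where the telomere-side Mb reached 57.9% and 54.2%, the difference was -25.4 ± 0.662. On X it was -11.6 ± 2.64. On 2L, 2R and 3L the sign differed between the libraries. The next Mb outward from the window gave mixed results. On 2L that Mb was covered to only 17.6% in each replicate, and the end Mb lay above it by 13.9 ± 8.44 percentage points. On 3L, 3R and X the end Mb lay below the next one, with differences of -9.10 ± 2.47, -10.5 ± 3.03 and -21.0 ± 8.56 percentage points (SD, n = 2 each). On 2R the difference was -3.43 in replicate 1 and 6.98 in replicate 2, or 1.77 ± 7.36, and the mean of the arms was -4.98 ± 5.97, both smaller than their spread.

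The autosomal Het scaffolds of release 5 are heterochromatin sequences assigned to an arm but not joined to it. The 4 autosomal windows were covered to a mean of 27.8% in replicate 1 and 36.3% in replicate 2, against 17.7% and 26.5% over the 4 autosomal Het scaffolds together. The windows exceeded the scaffolds by 10.1 percentage points in replicate 1 and by 9.80 in replicate 2. The mean of these, 9.95 ± 0.212 (SD, n = 2), was many times its spread, but it joined arms that differed. The 3R window had 33.0% and 28.3%, against 19.0% and 25.6% on 3RHet, so its excess was smaller in replicate 2. The excess was larger in replicate 2 on 2L, with 25.5% and 37.5% against 12.7% and 17.1% on 2LHet. The same held on 2R, with 26.0% and 40.8% against 15.4% and 23.4% on 2RHet. On 3L there were 26.9% and 38.6%, against 20.2% and 32.7% on 3LHet. Replicate 2 exceeded replicate 1 by 8.46 percentage points in these windows and by 8.76 on these scaffolds. On 3R the difference of replicate 2 from replicate 1 was -4.69 percentage points in the window and 6.59 on 3RHet. For X it was 0.556 percentage points in the window and -0.486 on XHet.

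Along the windows, the coverage averaged over arms was highest in the outermost 200 kb and about level from there to the end of the assembly. Averaged over the 5 arms, the band 800 to 1000 kb from the end was covered to 36.9% in replicate 1 and 43.5% in replicate 2. The band at 600 to 800 kb had 23.7% and 29.8%, and that at 400 to 600 kb had 23.4% and 33.0%. The band at 200 to 400 kb had 27.02% and 33.0%, and the last 200 kb had 25.4% and 31.8%. Replicate 2 was the higher in all 5 bands. Past the first band the means of the replicates lay between 26.8% and 30.0%, a range smaller than the SD between replicates in any of the bands. By arm, the outermost band was the highest in both replicates only on 2R, with 38.3% and 62.0%, and on 3R, with 61.2% and 47.4%. It had 23.8% and 34.1% on 2L, 29.5% and 47.5% on 3L and 31.8% and 26.2% on X. Averaged over the 5 arms, the inner 500 kb differed from the outer 500 kb by -2.69 percentage points for replicate 1 and -1.23 for replicate 2, or -1.96 ± 1.03 (SD, n = 2).

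This near-level average joined arms that ran in opposite directions. On X the inner 500 kb was the more covered, 29.1% against 21.2% in replicate 1 and 32.4% against 19.0% in replicate 2, a difference of 10.6 ± 3.88 percentage points (SD, n = 2). It was 3.31 with only clusters at or above the median score of their list and 5.04 with only those of at least 2 kb. On 2R, 3L and 3R the inner 500 kb was the less covered in both replicates, with mean differences of -4.00 ± 2.48, -10.0 ± 8.76 and -7.30 ± 8.60 (SD, n = 2 each). The difference on 3R was smaller than its spread, and that on 3L only a little larger. On 3L it lay mostly in replicate 2, with 46.7% in the outer and 30.5% in the inner 500 kb. On 3R it lay mostly in replicate 1, with 39.7% and 26.3%. On 2L the sign differed, with -1.85 in replicate 1 and 3.70 in replicate 2.

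**Figure D2:**
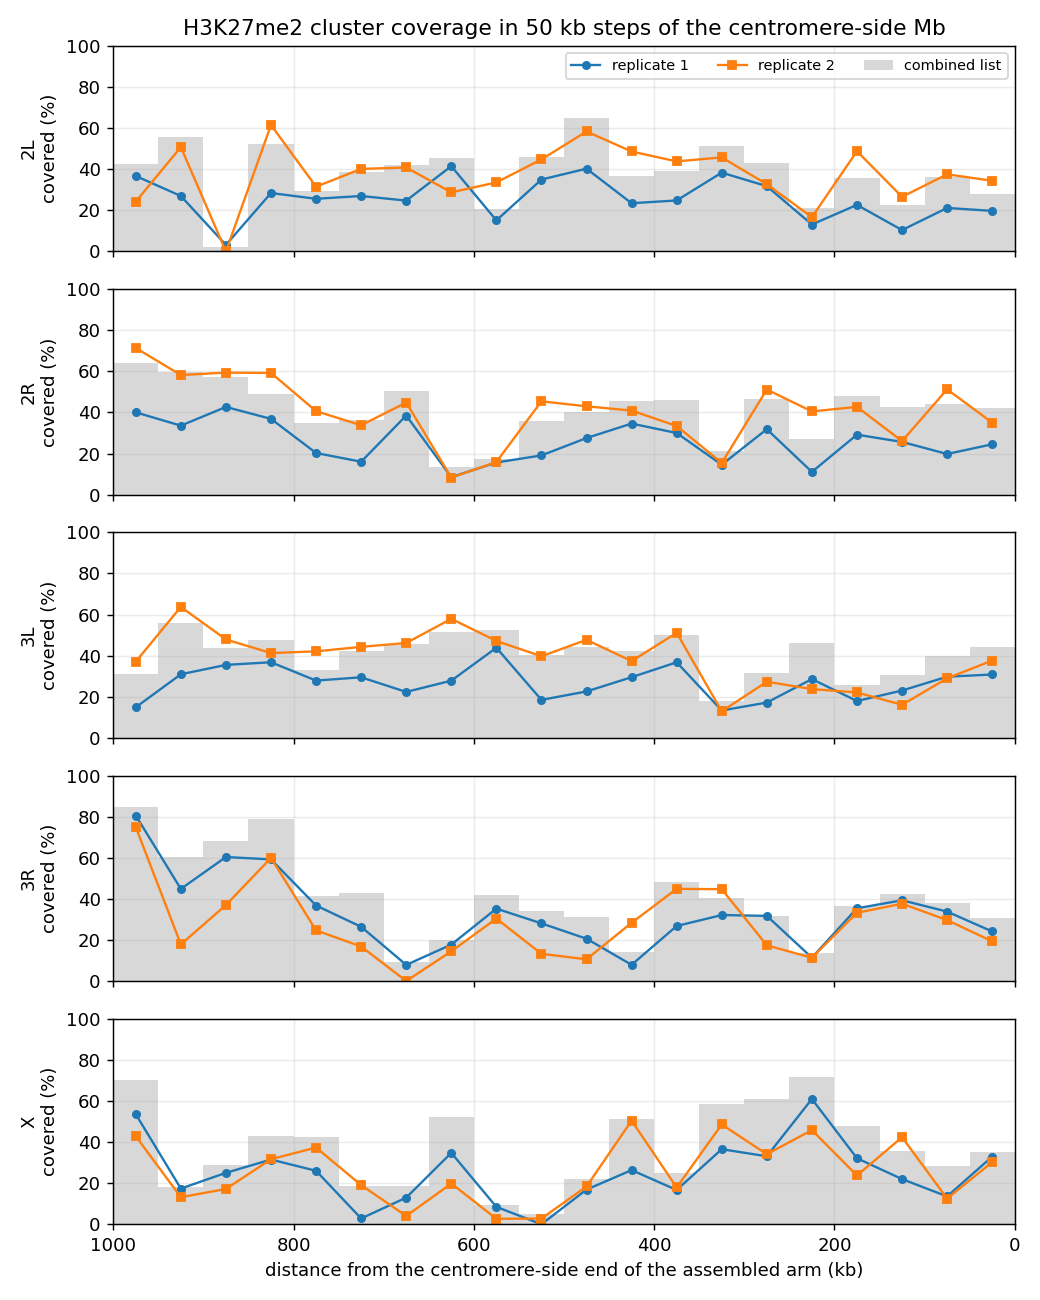
Percent of each 50 kb step lying in H3K27me2 clusters (vertical axis) against distance in kb from the centromere-side end of the assembled arm, with circles for replicate 1, squares for replicate 2 and grey bars for the combined list. On 2R replicate 2 lies above replicate 1 in 19 of 20 steps, and on 3R it does so in 4 of 20.

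The steps of the windows lacked the highly covered stretches found elsewhere. Mean coverage of the replicates ran from 1.38% to 77.7% over 100 steps, with a median of 31.7%. A single step (1 of 100) lay above 60%, the outermost step of 3R, with 80.5% in replicate 1 and 74.9% in replicate 2. Over all 2378 steps of the large arms 21.0% did so. Steps below 20% numbered 21 of 100, close to the 20.9% over all steps. The SD across steps was 13.1 percentage points in the windows and 22.5 in the rest of the arms. Highly covered steps were thus nearly missing. The overall share of steps below 20% joined arms that differed: there were 8 of 20 on X, against 27.3% of steps in the rest of X, and 5 of 20 on 3R, against 16.5%. On 2L and 2R there were 3 of 20 each, against 22.5% and 16.2%, and on 3L 2 of 20, against 22.8%.

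The most and least covered steps of each arm were placed without a common distance. On 2L the highest was 22511545 to 22561544, where replicate 1 covered 40.3% and replicate 2 58.4%, and the lowest was 22111545 to 22161544, with 3.18% and 0%. On 2R the outermost step, 950001 to 1000000, was the highest with 40.0% and 71.4%, and 600001 to 650000 the lowest with 8.49% and 8.27%. On 3L they were 23593558 to 23643557 with 30.9% and 63.7%, and 24193558 to 24243557 with 13.3% and 12.9%. On 3R the lowest was 650001 to 700000, with 7.86% and 0%. On X the highest was 22172828 to 22222827, with 60.9% and 45.8%, and it lay in the inner 500 kb like that of 2L. The lowest on X, 21872828 to 21922827, had 0% and 2.76%. At the highest steps of 2L, 2R and 3L replicate 2 exceeded replicate 1 by 18.1 to 32.8 percentage points.

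Each window also held a stretch with no cluster in any of the 3 lists. The longest was on X, 21828917 to 21902539 (73.6 kb), about 520 to 594 kb from the end. On 3R it was 192131 to 238298 (46.2 kb), on 2R 479317 to 510278 (31.0 kb), on 2L 22110871 to 22141670 (30.8 kb) and on 3L 24206374 to 24234811 (28.4 kb). Such a stretch may hold gaps of the assembly or repeats, which were counted as sequence.

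The replicates exchanged their order near the centromere. Over the rest of the arms replicate 1 was the more covered, with a difference of replicate 2 from it of -6.28 percentage points in the mean of the arms, and replicate 2 was above it in 24.1% of 2278 steps. In the windows replicate 2 was above replicate 1 in 66 of 100 steps, against 25.8% of all steps of the large arms. By arm these were 17 of 20 on 2L, 19 on 2R, 16 on 3L, 4 on 3R and 10 on X. In the rest of the same arms the share of such steps was 32.3%, 20.1%, 28.5%, 21.0% and 18.2%. The share on 3R was thus near that of its own arm, and the excess lay on the other 4 arms. The 5 steps with the largest difference were on 2L, 2R and 3L, all with replicate 2 the higher, by 30.1 to 33.1 percentage points. At the largest, 2L 22161545 to 22211544, replicate 1 covered 28.4% and replicate 2 61.5%.

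The exchange reached different distances on the arms that showed it. In steps of 200 kb counted outward from the end, replicate 2 stayed above replicate 1 for 1000 kb on 2L and for 1600 kb on both 2R and 3L. On X it did so for 200 kb only, and on 3R for 0 kb. On 2L the next Mb was nearly even, with replicate 2 above in 13 of 20 steps of 50 kb. In the third Mb it was above in 7 of 20 steps on 2L and in 2 of 20 on both 2R and 3L. Counted by Mb, the difference between replicate 2 and replicate 1 on 2R was 14.8 percentage points in the end Mb, 4.42 in the second, -6.79 in the third and -12.3 in the fourth. On 3L the same series was 11.7, 8.24, -9.00 and -5.15, and on 2L it was 12.0, 0.0334, -3.01 and -5.08. On 3R it was negative throughout, at -4.69, -8.98, -12.7 and -6.79. On X it passed from 0.556 in the end Mb to -11.5 in the second. Read depth is unknown, since the files hold no counts, and its part in the order of the replicates was not tested.

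**Figure D3:**
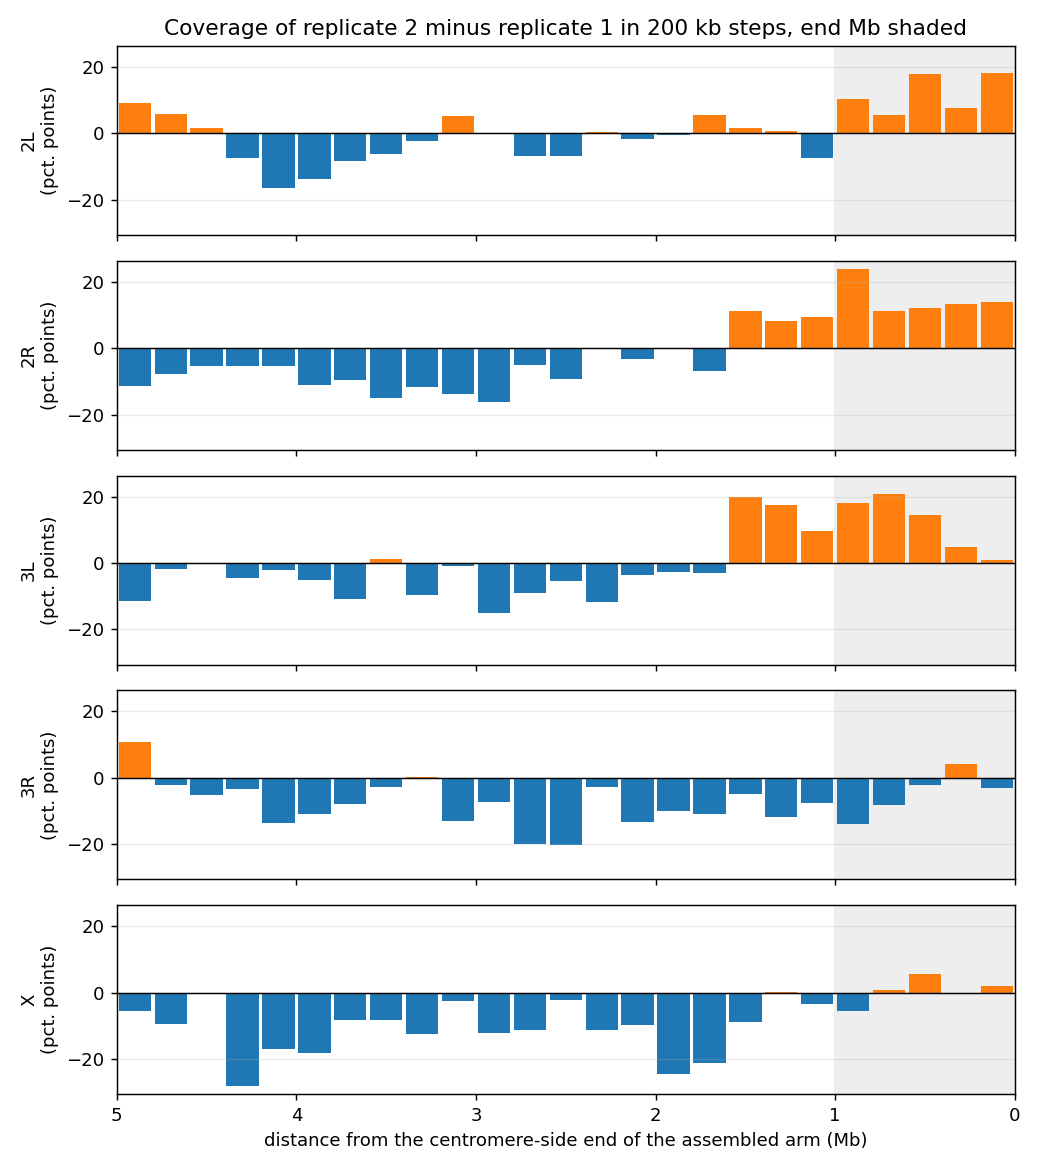
Coverage of replicate 2 minus that of replicate 1 in percentage points (vertical axis) in steps of 200 kb over the 5 Mb at the centromere-side end of each arm, with distance from the end in Mb on the horizontal axis and the end Mb shaded. Bars are above 0 in every step up to 1000 kb on 2L and up to 1600 kb on 2R and 3L. On 3R the average over each of the 5 Mb is below 0, from -12.7 to -2.63.

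Both the number and the length of clusters entered this difference. On 2L there were 90 members in replicate 1 and 118 in replicate 2, on 2R 86 and 120, and on 3L 103 and 118. Mean lengths on these arms were 2838, 3024 and 2608 bp in replicate 1 and 3175, 3411 and 3271 bp in replicate 2. On 3R there were 111 and 105 members, with means of 2973 and 2696 bp. On X there were 97 and 100, with means of 2594 and 2572 bp. Over 369 reciprocally best overlapping pairs in the windows, the cluster of replicate 2 was the longer in 57.5%, against 37.6% of all such pairs on the large arms. The median ratio of lengths, replicate 2 over replicate 1, was 1.22 on 2L, 1.16 on 2R and 1.17 on 3L. It was 0.968 on 3R and 0.944 on X. In the rest of each arm it lay between 0.870 and 0.948.

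Members were short, and long domains were nearly missing. In replicate 1 the median member measured 2233 bp, against 2476 bp in the rest of the arms. In replicate 2 these were 2255 and 2277 bp, and for the combined list 2319 and 2674.5 bp. Members of at least 10 kb numbered 2 of 487 in replicate 1, against 3.78% of all its clusters, and 6 of 561 in replicate 2, against 2.90%. In the combined list they numbered 7 of 648, against 6.78%. The telomere-side Mb held 56 of 489, 46 of 432 and 72 of 452 such clusters in the same lists. These are 11.5%, 10.6% and 15.9%, above the shares of the whole lists. The autosomal Het scaffolds resembled the windows: 0.176%, 1.69% and 1.67% of their clusters were that long, beside 0.411%, 1.07% and 1.08% of members. Clusters of that length held 1.83%, 3.86% and 4.34% of member bases, and 17.3%, 13.2% and 30.7% of cluster bases in the rest of the arms. Density was 97.4 members per Mb in replicate 1, against 124 in the rest of the arms, and 112 against 116 in replicate 2. In the combined list it was 130 against 126, so there the lower coverage came with shorter and not with fewer clusters.

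The longest members of the combined list were found in both replicates. On 2L it was 22482673 to 22497833 (15.2 kb, score 0.99), covered to 88.2% by replicate 1 and 99.9% by replicate 2. Replicate 1 had 1 cluster there, of 13.4 kb, where replicate 2 had a pair of 10.3 and 7.77 kb. On 3R it was 853325 to 868388 (15.1 kb, score 0.47), covered to 87.5% and 62.0%. It was broken into 3 clusters in replicate 1 and a pair in replicate 2. Those on 3L (23695831 to 23707788, 12.0 kb), 2R (413723 to 424171, 10.4 kb) and X (21594501 to 21602542, 8.04 kb) were covered to 83.8%, 73.4% and 96.2% by replicate 1 and to 98.8%, 98.6% and 82.8% by replicate 2. The longest H3K27me2 cluster next to the X centromere thus stayed under 10 kb.

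Scores of members, the authors' value of a region on what was read as a log2 scale, were higher than in the rest of the arms although coverage was lower. In replicate 1 the median member scored 0.75, against 0.67 in the rest of the arms. In replicate 2 it scored 0.72 against 0.62, and among combined clusters 0.56 against 0.47. Autosomal Het scaffolds had 0.94, 0.84 and 0.70 in these lists, above the windows in each. The gain was greatest on 2R in replicate 1, 0.93 against 0.70, and on 3L in replicate 2, 0.80 against 0.60. On 2L the medians were 0.73 against 0.63 in replicate 1 and 0.72 against 0.60 in replicate 2, and on X 0.80 against 0.76 and 0.74 against 0.70. The 3R window went the other way in all 3 lists, with 0.63 against 0.65, 0.56 against 0.61 and 0.41 against 0.47. The lowest and highest member scores were 0.048 and 3.20 in replicate 1 and 0.32 and 2.89 in replicate 2.

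**Figure D4:**
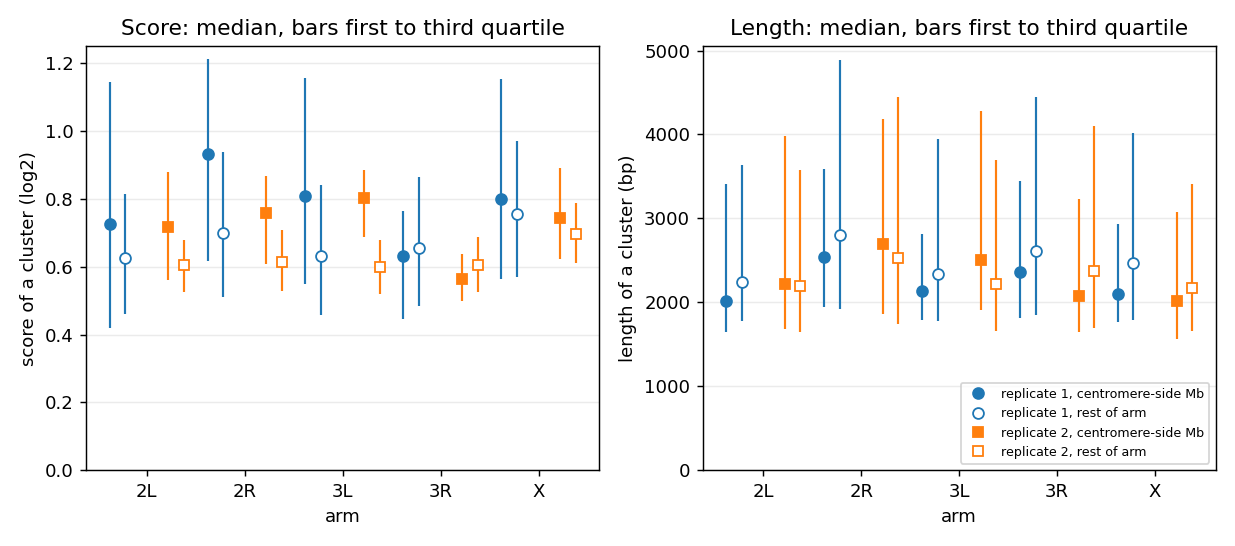
Median score on a log2 scale (left) and median length in bp (right) of clusters in the centromere-side Mb (filled) and in the rest of the same arm (open), with circles for replicate 1, squares for replicate 2 and bars from the first to the third quartile over clusters. On 2L, 2R, 3L and X the filled score marks lie above the open ones in both replicates, and on 3R they lie below.

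The upper tail of scores was well populated on 4 of the 5 arms. Members at or above the 95th percentile of their list numbered 65 of 487 (13.3%) in replicate 1, against 5.00% of the whole list, and 87 of 561 (15.5%) in replicate 2, against 5.01%. In the rest of the arms the shares were 2.60% and 1.55%. High scores were not particular to the windows. On the autosomal Het scaffolds the third quartile of score was 1.32 in replicate 1 and 0.98 in replicate 2, above the 1.08 and 0.85 of members. On 2L, 2R, 3L and X the share of members ran from 11.7% to 21.6% in replicate 1 and from 17.8% to 21.0% in replicate 2. On 3R a single member of 111 was among them in replicate 1, and none in replicate 2, where the highest 3R score of 0.90 lay below the 95th percentile of 0.93. Of the high-scoring members, 80.0% in replicate 1 and 81.6% in replicate 2 were touched by a cluster of the other replicate. At the same cut this share was 75.8% and 79.4% over the whole lists, and 96.7% and 96.6% in the rest of the arms. The high-scoring members measured a median of 4017 bp in replicate 1 and 2903 bp in replicate 2. Across members, score rose with length, with a Spearman coefficient of 0.633 over 487 members of replicate 1 and 0.474 over 561 of replicate 2. In the rest of the arms it was 0.744 and 0.641. Clusters of a list come from the same library and are no replicates of each other.

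The highest scores of single replicates were not always shared, although most high-scoring members had a partner. The top member of an arm had no partner on 2 of 5 arms in replicate 1 and on 4 of 5 in replicate 2. These top members are few and were picked by score. Of all high-scoring members, 80% in replicate 1 and 81.6% in replicate 2 had a partner. Over all clusters of the whole lists the share was 76.5% and 85.3%. In replicate 1 the top member was X 21773306 to 21775796, of 2.49 kb with a score of 3.20, and no cluster of replicate 2 touched it. In replicate 2 it was 2R 102934 to 104396, of 1.46 kb with a score of 2.89, and none of replicate 1 touched it. Among combined members touched by both replicates, the highest score on each arm was 1.93 on X (21765687 to 21771464), 1.77 on 2R (181472 to 188389), 1.72 on 2L (22401798 to 22408486), 1.54 on 3L (24107384 to 24112066) and 1.11 on 3R (114425 to 122078). The 4 on autosomes were covered to between 85.3% and 98.5% by each replicate. The one on X was covered to 40.9% by replicate 1 and 34.8% by replicate 2. It lies 651 to 657 kb from the end, and the clusters of the replicates within it were at different places. The top X member of replicate 2, 21765996 to 21768008 with a score of 2.43, lay inside it without a partner.

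The replicates shared a smaller part of the bases covered by either next to the centromere than elsewhere. They shared 1039 kb of the 5 Mb, with 326 kb in replicate 1 alone and 670 kb in replicate 2 alone. The Jaccard index, the share of bases in both lists among those in at least 1, was 0.510, against 0.621 in the rest of the arms and 0.684 in the telomere-side Mb. By arm it was 0.508 on 2L, 0.467 on 2R, 0.543 on 3L, 0.546 on 3R and 0.490 on X. In the rest of each arm it was 0.586, 0.672, 0.607, 0.644 and 0.583, so each window lay below its own arm. Of the bases of replicate 1, 76.1% were shared, against 71.2% in the rest of the arms. Of those of replicate 2, 60.8% were shared, against 82.9%. Unequal coverage alone caps the index: with the bases covered, the largest possible values were 0.680, 0.637 and 0.696 on 2L, 2R and 3L, and 0.858 and 0.978 on 3R and X. On 3R and X the covered amounts were closer, and the index lay farther below its cap. In the rest of 2L, 2R and 3L the caps were higher than in the windows, at 0.894, 0.858 and 0.893. On these 3 arms the index is therefore not a like comparison of agreement between window and rest. In the rest of 3R and X the caps were 0.851 and 0.796. The comparison is not a like one on 3R and X either, since the index by random placement also rises with the amount covered. Coverage was 33.0% and 28.3% in the 3R window against 48.7% and 41.4% in its rest. On X it was 25.2% and 25.7% against 41.2% and 32.8%. The part of coverage in the lower index was not tested. On 2L, 2R and 3L at least 81.8% of the bases of replicate 1 lay within clusters of replicate 2.

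**Figure D5:**
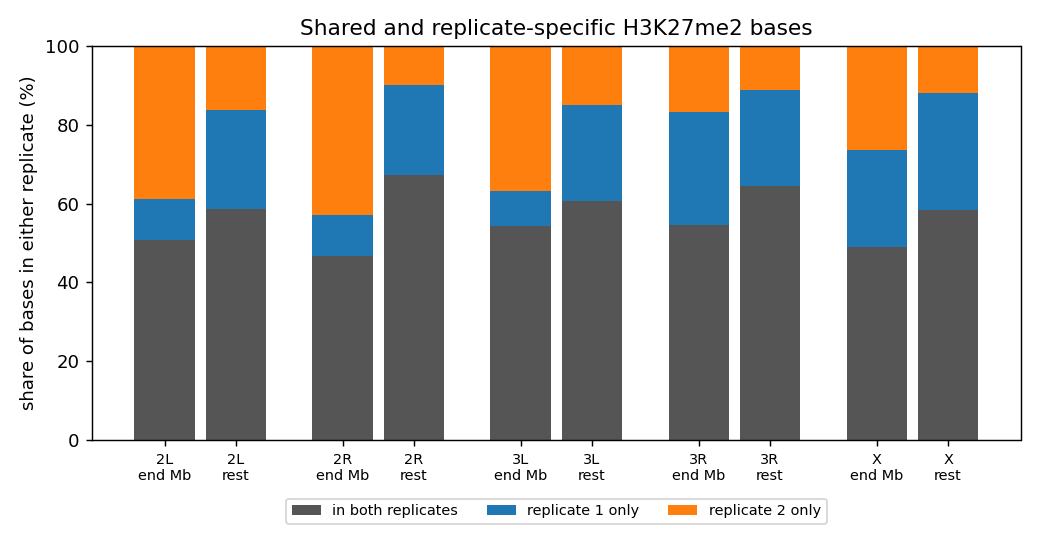
Shares in percent (vertical axis, starting at 0) of the bases lying in a cluster of either replicate that were in both replicates, in replicate 1 alone or in replicate 2 alone, for the end Mb on the centromere side and the rest of each arm. Bases of replicate 2 alone take a larger share in every end Mb than in the rest of the same arm.

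Counted by cluster, 404 of 487 members of replicate 1 (83.0%) overlapped at least 1 base of a replicate 2 cluster, against 76.5% of all clusters of that list. Of the members of replicate 2, 398 of 561 (70.9%) touched one of replicate 1, against 85.3%. The share was lowest on 2R for replicate 2, 61.7%, and on 3R for replicate 1, 72.1%. With a reciprocal overlap of 50% it was 57.1% for replicate 1, against 51.5% over the list, and 49.6% for replicate 2, against 53.4%. Members with no partner were shorter and, over all arms, scored lower. The 83 of replicate 1 had medians of 1797 bp and 0.57 in score, compared with 2376.5 bp and 0.79 where there was a partner. The 163 of replicate 2 had 1701 bp and 0.63, compared with 2746 bp and 0.75. On 2R and 3L the few of replicate 1, 12 and 8 members, had higher median scores than those with a partner, 1.02 compared with 0.92 and 1.08 compared with 0.80.

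Scores of paired clusters kept their order about as well as elsewhere. Over the 369 pairs in the windows the Spearman coefficient of scores was 0.665, against 0.591 over 9559 pairs in the rest of the arms. By arm it ran from 0.519 on 3L to 0.796 on 2L. Lengths of the same pairs were less alike, with a coefficient of 0.455 against 0.613. Coverage of the 50 kb steps had a Spearman coefficient between replicates of 0.539 over the 100 steps of the windows and 0.875 over 2278 steps in the rest. By arm, over 20 steps each, it was 0.383 on 2L, 0.534 on 3L, 0.704 on 3R, 0.729 on 2R and 0.780 on X. All points of a coefficient come from the same pair of libraries, and the steps of the windows spanned a narrower range of coverage.

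The combined list mirrored these differences. Of its 648 members, 370 (57.1%) were touched by both replicates, close to the 56.3% over the whole list, and 68 (10.5%) by neither, against 14.2%. Members touched by replicate 2 alone numbered 142 (21.9%), and those touched by replicate 1 alone 68 (10.5%). In the rest of the arms the order was reversed, with 8.84% and 19.9%. Members touched by both had medians of 3350 bp and 0.69 in score, and those touched by replicate 2 alone 1627.5 bp and 0.41. Among members of replicate 2, 90.2% touched a cluster of the combined list, against 97.7% in the rest of the arms, while in replicate 1 it was 99.6% against 99.2%. The sources used here do not give how the authors joined the replicates.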

How the data were processed

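ChIP-seq for H3K27me2 was made in 2 ChIP samples with 2 inputs. The submitters' processing notes name Bowtie 0.12.7 as a tool, and coordinates are FlyBase r5, per the file headers. The authors deposited enriched regions with a score for each ChIP sample and for the replicate set. For the caller, its thresholds and the use of input, nothing is given in the sources used here. The deposited score was read as log2, because 398, 78 and 246 pairs of distinct scores of replicate 1, replicate 2 and the combined list lay 1 apart (within 1e-09), and 0 pairs lay apart by a doubling on a natural or decimal log scale. The files hold no counts, so depth is unknown.

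Coverage counts bases of enriched regions clipped to a window, over its full length, gaps included. A partner overlaps by at least 1 base. Differences were taken within a library. The rest of an arm is all of it but the end Mb. The 2378 steps are whole steps counted from the centromere side. Named regions are, per arm, the longest combined member, the highest and lowest step, the longest free stretch and the highest score touched by both replicates, plus the 5 steps that differ most between replicates. Other single clusters were named after their values were seen. Members, lists and rules were chosen with earlier results of these data known. Functions were tested on simulated data. The software was scipy 1.17.1, pandas 2.3.3, numpy 2.4.6 and matplotlib 3.10.9 under Python 3.11.15. Alternatives were the combined list, either replicate alone, filters on score and length, joining, other window sizes, other references and a stricter overlap.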

Additional observations from a re-analysis of the deposited data

Results flagged for a closer look

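Each value here stands out because both libraries of an arm moved one way and both libraries of another arm moved the opposite way. The difference between arms was not tested, and the arms share their libraries. For the inner 500 kb minus the outer 500 kb of the window, the mean of the replicates was 10.6 ± 3.88 percentage points on X (SD, n = 2 each), against -4.00 ± 2.48 on 2R, -10.0 ± 8.76 on 3L and -7.30 ± 8.60 on 3R. The value on X was 3.31 with scores at or above the list median and 5.04 with regions of at least 2 kb. For the end Mb minus the next Mb of the same arm, it was 13.9 on 2L, against -9.10 on 3L, -10.5 on 3R and -21.0 on X.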

How the results depend on the processing

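Of 59 values of the main results under an alternative, 37 moved by less than the spread between replicates (for counts, by less than 1.5 times) and 22 moved by more. For the Jaccard index the SD over arms stood in for that spread. Of 215 values for single arms and named regions, 167 moved by less, 40 by more and 8 changed sign. Omitting 1 of 2 replicates moves a mean by less than their SD whatever the data. Apart from counts, such an alternative could only stay within the spread or change sign, and says nothing about stability. Among the 167 were 28 values without replicate 1 and 29 without replicate 2. From the combined list the windows were covered to 39.4%, and members had medians of 2319 bp and 0.56 in score. With scores at or above the list median they were covered to 22.6%, the inner minus the outer 500 kb was -0.527 percentage points, the Jaccard index was 0.420, and 322 members had medians of 2823.5 bp and 0.91. With regions of at least 2 kb the values were 24.1%, 0.453, 321 members, 3097.75 bp and 0.86. Joining regions gave a median of 2791.5 bp. The end 0.5 Mb held 260 members with a median of 2206.5 bp. The end 2 Mb held 1071 with 2270.5 bp and a score of 0.70, and its Jaccard index was 0.552. A reciprocal overlap of 50% left 53.3% of members with a partner, against 77.0%. Filters, joining and window size act on counts and lengths by construction. For the rest the cause was not tested.

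The mean difference from the rest of the arm stayed below 0 in all 10 alternatives, and was -16.9 to -3.77 when 1 replicate was omitted, which leaves the value of the other. Signs turned for single arms. On 2L this difference was -14.8 to 1.42 when 1 replicate was omitted, 1.74 at or above the median score and 13.9 against the next Mb. On 3L it was -15.4 to 0.858 when 1 replicate was omitted and 3.20 at or above the median score, and on 2R 1.77 against the next Mb. The inner minus the outer 500 kb was -1.85 to 3.70 on 2L when 1 replicate was omitted, and 0.887 on 3R at or above the median score. On X the difference from the rest was -0.599 with the end 2 Mb. Alternatives for the named regions were chosen after seeing the data. Bases without assembly gaps were not used as a denominator, since no release 5 genome was used here. No paired analysis was possible because replicate numbers are shared by a ChIP sample and its input, no list was used for input, and no test compared groups of samples. Differences between parts of the genome were taken within a library. The files give no depth, so its limits were not measured.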

Other observations

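Members lay farther apart than clusters in the rest of the arms. The median gap between neighbouring members of replicate 1 was 5348 bp on 2L, 6066 bp on 2R and 4105 bp on 3L, against 1890, 1558 and 1913 bp in the rest of these arms. On 3R it was 2705.5 bp against 1442, and on X 2869.5 bp against 1752. In replicate 2 the gaps were 2300, 2226, 2602, 2623.5 and 3075 bp on 2L, 2R, 3L, 3R and X, a narrower range. In the rest of these arms they were 1707, 1488.5, 1698, 1460 and 1912 bp, so on 2L, 2R and 3L the contrast was weaker than in replicate 1. In the combined list they were 2757, 2004, 2376, 2484.5 and 1400.5 bp, against 1250, 1227, 1253.5, 1058 and 1254 bp. The distance of the innermost cluster from the end of the assembly differed between the libraries on 3 arms. On 3R it was 0.284 kb in replicate 1 and 13.7 kb in replicate 2. On 3L it was 3.95 and 0.551 kb, and on X 9.59 and 0.863 kb. On 2L it was 25.5 to 25.6 kb in all 3 lists, and on 2R 14.3 to 16.5 kb.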
